A study of Hydra vulgaris with 22 samples.

Results

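Hydra is a freshwater polyp whose inner cell layer, the gastrodermis, lines the gut cavity, and gastrodermal epithelial stem cells (gESC) are the dividing cells that build and renew this layer. They take up food particles by phagocytosis and digest them. An unfed polyp lives for weeks on stored material while its growth and budding decline, and gastrodermal cells are known to form autophagic vacuoles during that time. The comparison described here was gESC after 10 days without food (gESC_10d) against gESC after 3 days (gESC_3d), and it asks which RNAs differ between a longer and a shorter fast.

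The members were the 6 gESC libraries of the 22 libraries in the study, 3 at each time, chosen by their labels. All came from Hydra vulgaris, strain AEP, carrying an actin::eGFP transgene in which the actin promoter drives the fluorescent protein eGFP in gESC, and no treatment other than the days without food is given. The donor polyps were fed 3 times a week. Tissue was the central body column without its apical and basal ends, cells were taken by fluorescence-activated sorting at the high GFP gate, and polyadenylated RNA was sequenced as directional libraries. Reference groups were epidermal epithelial stem cells (eESC) with eGFP under the same promoter after 3 days (eESC_3d, n = 3) and 10 days (eESC_10d, n = 4), and interstitial stem cells with eGFP under the cnnos1 promoter in a high gate (ISC_high, n = 4) and a medium gate (ISC_medium, n = 3). The fast lasted 2, 3, 3 and 5 days in ISC_high A, B, C and D, and 5, 3 and 3 days in ISC_medium A, B and C. The number of polyps behind a library, and whether replicates came from separate cultures, are not given in the labels, so p-values measure only the spread between these libraries, which may be technical.

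The deposited table holds estimated counts for 61501 assembled transcript contigs. Contigs whose identifiers differ only in the final number were summed into 44306 stems, which stand for genes here, and 35462 stems hold a single contig. None of the contig identifiers (0 of 61501) matched the reference table of 28925 genes, so stems carry no gene name or role, marker genes could not be looked up, and the label gastrodermal could not be checked against known markers. Levels are in CPM, a stem's count scaled by the size of its library, and are not divided by contig length, which is not given.

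Library depth moved with time without food. The gESC_10d libraries held 29843317, 31150814 and 31723680 counts in replicates A, B and C. The gESC_3d libraries held 20326422, 19422544 and 25455639 counts. Sorted by their totals, the 20 sorted libraries fell into 8 with at most 20327106 counts and 12 with at least 25195891, and gESC_3d C was the only 3-day epithelial library in the deeper class. All eESC_3d and ISC_medium libraries were in the lower class, and all eESC_10d and ISC_high libraries in the deeper class.

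By overall distance the 6 gESC libraries did not group by time. They formed 3 pairs, given here as the root mean square of the difference in log2(CPM + 0.25) over tested stems. The gESC_3d A and B libraries were 0.395 apart, and gESC_10d B and C were 0.282 apart. The third pair crossed the groups: gESC_3d C and gESC_10d A were 0.458 apart and were each other's nearest library. The gESC_3d C library lay 0.722 and 0.725 from its own group's A and B, and gESC_10d A lay 0.584 and 0.627 from gESC_10d B and C. Both gESC_3d C and gESC_10d A thus stood apart from their groups by distance. The second principal component, with 32.2% of the variance, did separate the times: its scores were 28.9, 28.5 and 24.3 in gESC_3d A, B and C and 0.41, -38.6 and -43.5 in gESC_10d A, B and C. On it gESC_3d C lay with the other 3-day libraries, and gESC_10d A lay between them and gESC_10d B and C. Counts of calls are given with and without gESC_3d C.

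**Figure D1:**
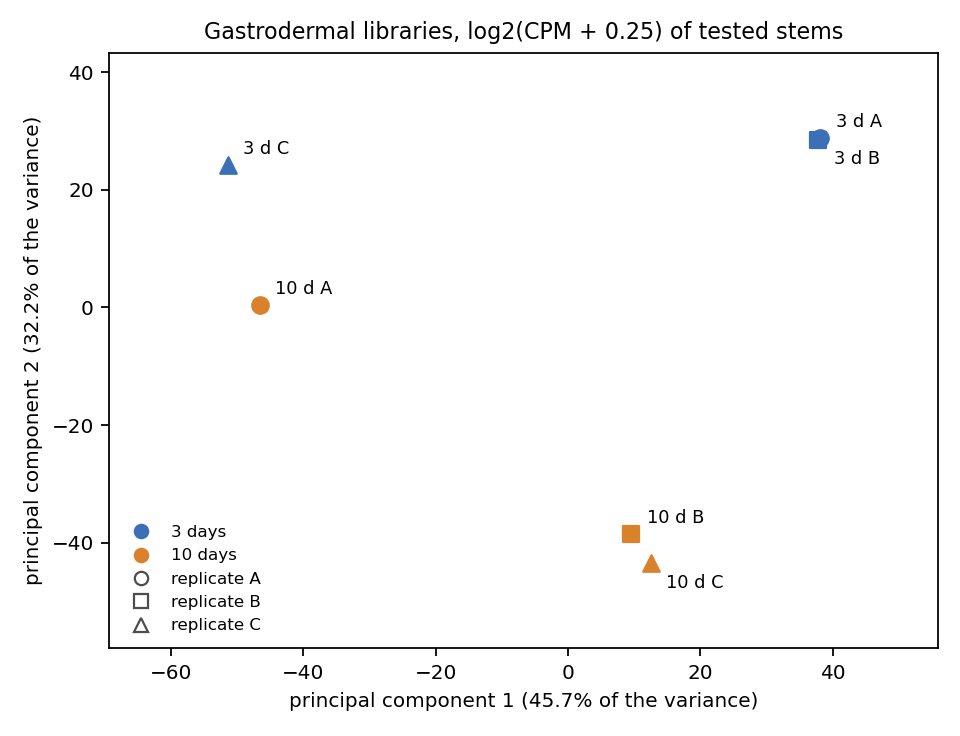
Principal components 1 and 2 (45.7% and 32.2% of the variance) of log2(CPM + 0.25) over tested stems, with 1 point per gESC library, colour for days without food and shape for replicate. Replicates A and B at 3 days lie together, replicates B and C at 10 days lie together, and 3 days C lies near 10 days A on component 1, while on component 2 the 3-day libraries (24.3 to 28.9) lie above the 10-day ones (-43.5 to 0.41).

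With all 6 libraries, 12 stems passed the test (edgeR quasi-likelihood F test, Benjamini-Hochberg adjusted p-value under 0.05), of which 11 were lower and 1 was higher after 10 days. They were 0.0656% of the 18288 stems tested, and 2519 stems had an unadjusted p-value under 0.05. In all 12 the 3 libraries of one group lay above the 3 of the other, which held for 17.9% of all tested stems (3280), 1551 of them higher and 1729 lower after 10 days. Of the 12, 11 differed by at least 2-fold. Leaving out any library other than gESC_3d C left 4 calls (gESC_3d A), 2 (gESC_10d C) or 0 (gESC_3d B, gESC_10d A or gESC_10d B; 1609, 2936 and 1730 stems at an unadjusted p under 0.05, and DESeq2 with all libraries called 542). In bulk RNA, fewer cells of a type and less RNA per cell cannot be told apart.

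The stem c23306_g1 showed the plainest fall. Its level was 926.8, 631.0 and 660.1 CPM in gESC_3d A, B and C, and 3.755, 14.65 and 15.9 CPM in gESC_10d A, B and C. All 3-day libraries, gESC_3d C included, were far above all 10-day libraries. The mean fell from 739 ± 163 (SD, n = 3) to 11.4 ± 6.68 CPM (n = 3), a log2 fold change of -6.01 (SE 0.963; edgeR adjusted p = 0.0290). Against the deeper gESC_3d C alone, the level was still 57.7 times that of the 10-day mean. The stem belonged to the gastrodermal list described further on: it was 1.72 ± 2.68 CPM in eESC_3d (n = 3), 0.0181 ± 0.0209 CPM in eESC_10d (n = 4), and 0.531 ± 0.403 and 1.26 ± 1.56 CPM in the interstitial high (n = 4) and medium (n = 3) gates. The call was lost without any single library other than gESC_3d C, with adjusted p from 0.0605 to 0.195, and the log2 fold change then ran from -6.32 to -5.60.

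The stem c35002_g1 had the largest fall on the log2 scale and behaved differently. Its level was 101.5, 12.39 and 3.143 CPM in gESC_3d A, B and C, and 0.3281, 0.5873 and 0.2933 CPM in gESC_10d A, B and C. The 3-day libraries were spread widely, with gESC_3d C the lowest of them, and none overlapped the 10-day libraries. The log2 fold change was -6.56 (SE 1.17; adjusted p = 0.0413), and it was -2.94 (adjusted p = 0.651) between gESC_3d C and gESC_10d within the deeper class. With depth class as a term in the fit it was -2.93 (adjusted p = 0.562). Only gESC_3d held libraries of both classes, so this term again set gESC_3d C against gESC_10d and is not a separate result. Without gESC_3d A the log2 fold change was -4.22 (adjusted p = 0.202). The same stem was at 75.7 ± 40.6 CPM in eESC_3d (n = 3) and 0.817 ± 0.227 CPM in eESC_10d (n = 4). It was also at 36.7 ± 11.2 CPM in the medium interstitial gate (n = 3) and 0.790 ± 1.17 CPM in the high gate (n = 4), so it was high in eESC_3d and ISC_medium, of the lower depth class, and low in eESC_10d and ISC_high, of the deeper class. With every library thinned at random to 17159718 counts, the log2 fold change was -6.115 (edgeR adjusted p = 0.0571). What else went with depth class in this fall was not tested.

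The single stem called higher was c43538_g1, which lay below the 10 CPM set for naming stems and was named after its values were seen. Its level was 1.923, 1.704 and 1.652 CPM in gESC_3d A, B and C, and 3.609, 4.111 and 4.595 CPM in gESC_10d A, B and C. The groups did not overlap and gESC_3d C was the lowest library. The mean was 1.76 ± 0.144 CPM (SD, n = 3) at 3 days and 4.11 ± 0.493 CPM (n = 3) at 10 days, a log2 fold change of 1.22 (SE 0.204; adjusted p = 0.0320). The call was lost without any single library other than gESC_3d C, with adjusted p from 0.0625 to 0.217. The eESC libraries, at 20.7 ± 3.11 CPM at 3 days (n = 3) and 24.5 ± 1.76 CPM at 10 days (n = 4), did not pass the test for this stem (log2 fold change 0.24; adjusted p = 0.362).

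The remaining 9 called stems all fell, with log2 fold changes from -3.57 to -0.71. One more of them belonged to the gastrodermal list: it was at 53.6, 70.39 and 69.74 CPM in gESC_3d A, B and C, and at 5.177, 4.552 and 6.616 CPM in gESC_10d A, B and C (log2 fold change -3.57, SE 0.573; adjusted p = 0.0290). Its 3-day libraries all lay at 8 or more times the highest 10-day library. In another, the levels were 109.4, 98.38 and 24.17 CPM at 3 days and 20.12, 21.56 and 22.49 CPM at 10 days, so gESC_3d C lay just above the 10-day libraries and far below A and B. Across the 12 stems, gESC_3d C was nearer to gESC_3d A and B in 8 and nearer to the 10-day mean in 4, on the log2 scale. The gESC_3d C library helped choose these stems as a 3-day library, so these counts are not independent of that choice.

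All 12 were also called with gESC_3d C left out, with gESC_3d C and gESC_10d A left out, and by DESeq2. Within the deeper class, gESC_3d C alone faced the 3 gESC_10d libraries. The 11 stems that fell had log2 fold changes from -5.86 to -0.19 there, and the 1 that rose was also higher there. These directions were fixed by the lack of overlap between the groups. A test there has to assume that gESC_3d C varied like the other groups, so no conclusion is drawn from it. The epidermal comparison used libraries not shared with the gESC comparison, but the same fit and a shared estimate of the spread. It called 9 of the 12 in the same direction and did not call 3. Over all stems it called 2246, or 12.3% of those tested. Among the 9, c23306_g1 was at 0.2024, 0.1527 and 4.816 CPM in eESC_3d A, B and C. Its epidermal 3-day level thus rested mainly on eESC_3d C.

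**Figure D2:**
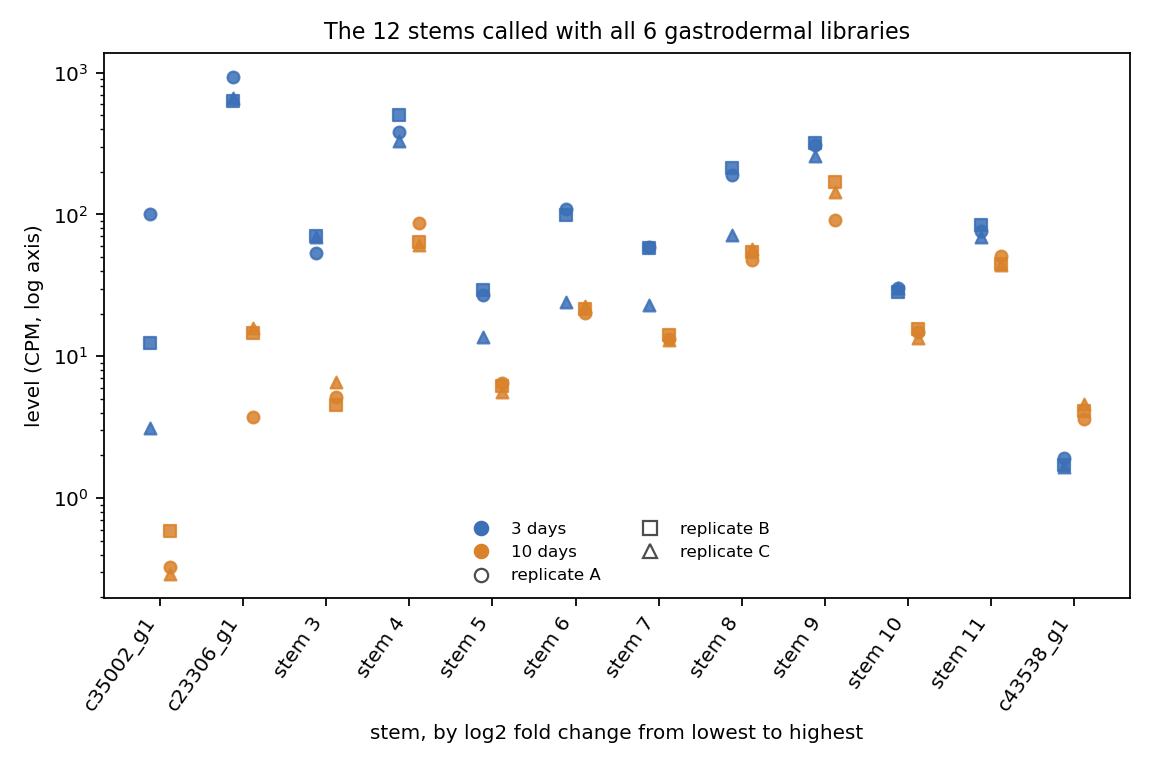
Level in CPM, on a log axis, of the 12 stems called with all libraries, with 1 point per gESC library, blue for 3 days and orange for 10 days. In c23306_g1 the blue triangle (3 days C) sits with the other 3-day libraries, and in stem 6 it sits at 24.17 CPM beside the 10-day libraries.

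Leaving out gESC_3d C raised the number of calls to 1013 of 19419 stems (5.22%), with 768 lower after 10 days (3.95%) and 245 higher (1.26%). Of these, 257 of the lower and 156 of the higher stems differed by at least 2-fold, and 68 and 56 by at least 4-fold. The direction split rested on the scaling. With library size in place of TMM factors, 805 stems were higher and 304 lower, and the median log2 fold change of all tested stems moved from 0.05 to 0.36. All 768 stems called lower stayed below 0 under that scaling and 304 of them kept their call, while all 245 called higher kept theirs. With gESC_10d A left out as well there were 693 calls, 632 of them among the 1013. Leaving out gESC_10d B or C in its place gave 217 and 198, and leaving out gESC_3d A or B, which leaves a single 3-day library, gave 110 and 76.

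The stems called lower were mostly stems with many counts. Their median over the gESC libraries was 55.6 CPM, not divided by length, against 11.9 CPM for those called higher and 2.83 CPM for all stems tested. Of stems at 100 CPM or more, 18.9% were called lower and 1.45% higher, and of stems under 1 CPM 0.653% and 0.431%. Together the 768 stems held 31.0% and 32.5% of all counts in gESC_3d A and B, and 21.1%, 23.7% and 21.2% in gESC_10d A, B and C. In gESC_3d C, which had no part in choosing them, they held 20.5%, below every 10-day library. The 245 stems held 0.884% and 0.921% in gESC_3d A and B, 2.25%, 2.04% and 1.89% in the 10-day libraries, and 1.93% in gESC_3d C.

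The left-out 3-day library therefore lay with the 10-day libraries for both sets. On a scale where the mean of gESC_3d A and B is 0 and that of gESC_10d is 1, the median position of gESC_3d C was 0.872 over the lower stems and 0.918 over the higher stems, and it was nearer to the 10-day mean in 699 of 768 and 208 of 245. In log2(CPM + 0.25), the lower stems had a median of -0.85 for gESC_10d minus gESC_3d A and B, the difference that chose them. The same median was -0.76 for gESC_3d C minus gESC_3d A and B, and -0.12 for gESC_10d minus gESC_3d C. For the higher stems the medians were 1.07, 0.93 and 0.08 in that order, and for all tested stems 0.03, -0.04 and 0.04. The positions and both differences with gESC_3d C reuse values of the libraries that chose these stems. They are therefore not independent of that choice, and its part in them was not tested.

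Libraries of other cells showed the same 2 sets displaced in the same directions. From eESC_3d to eESC_10d, 96.1% of the lower stems had a difference below 0 (median -0.63), against 38.7% of all tested stems (median 0.12). Of the higher stems, 93.1% had a difference above 0 (median 0.72), against 60.5% of all. In the same fit, the epidermal comparison called 1271 stems lower (6.55%) and 1464 higher (7.54%). It shared 540 stems with the 768 called lower in gESC, which is 70.3% of those and 42.5% of the epidermal ones, and 143 with the 245 called higher, 58.4% and 9.77%.

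Both interstitial gates were sampled after 2 to 5 days, and they differ in depth class. From ISC_medium to ISC_high, 84.1% of the lower stems were below 0 (median -0.49; all tested 43.7%, median 0.01) and 89.4% of the higher stems were above 0 (median 0.81; all tested 50.9%). With every library thinned at random to 17159718 counts, the fit without gESC_3d C called 1190 of 17442 stems, 281 higher and 909 lower. Time without food, depth class and whatever else set gESC_3d A and B apart from the other 4 gESC libraries cannot be told apart for most of these stems.

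**Figure D3:**
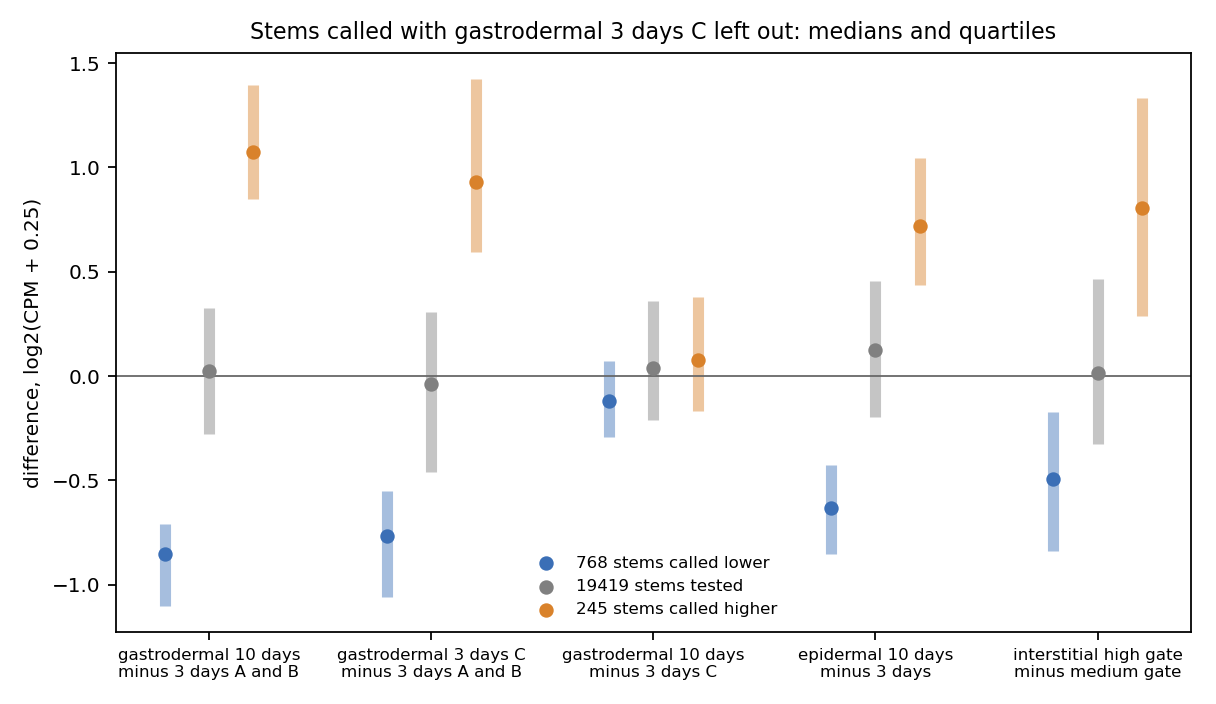
Median (point) and quartiles (bar) of the difference in log2(CPM + 0.25) for the 768 stems called lower, all 19419 tested and the 245 called higher without gESC_3d C. The first difference chose the coloured sets. They are also displaced in gESC_3d C against A and B (medians -0.76 and 0.93), which reuses the A and B values that chose them. They are displaced too in the epidermal and interstitial libraries, and lie near 0 for gESC_10d minus gESC_3d C (-0.12 and 0.08).

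No stem rose under the rule for naming, which asked for 10 CPM or more, no overlap, and a call with and without gESC_3d C. The stem c43538_g1 rose and was called both ways, but lay below 10 CPM. A pair of stems from the 245 called higher without gESC_3d C was named after their values were seen. The stem c26238_g2 was at 1.262 and 3.015 CPM in gESC_3d A and B and at 13.82, 16.5 and 16.49 CPM in gESC_10d A, B and C, and gESC_3d C, at 20.11 CPM, was the highest of the 6. Without gESC_3d C its log2 fold change was 2.87 (SE 0.347; adjusted p = 2.5e-04), and with it 0.92 (adjusted p = 0.502). Its level was 2.57 ± 0.773 CPM in eESC_3d (n = 3) and 15.6 ± 0.615 CPM in eESC_10d (n = 4), and 4.26 ± 1.40 and 19.6 ± 3.60 CPM in the medium (n = 3) and high (n = 4) interstitial gates. Lower-class libraries of every population were at the low level and deeper-class libraries at the high one. Depth class went with the days without food in eESC and with the gate in the interstitial cells, so these cannot be told apart.

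The stem c22496_g1 varied more between libraries. It was at 9.493 and 1.573 CPM in gESC_3d A and B, at 73.41 CPM in gESC_3d C, and at 133.6, 22.26 and 18.25 CPM in gESC_10d A, B and C. The gESC_3d C and gESC_10d A libraries were the 2 highest. Its log2 fold change was 3.38 without gESC_3d C (SE 0.956; adjusted p = 0.0480), a call that 6 of 13 alternatives lost, and 1.03 with it (adjusted p = 0.673).

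The level of RNA typical of each population was followed with lists of stems at least 8-fold above both other populations and at 10 CPM or more, chosen from the mean levels of these same libraries over both times together. The gastrodermal list held 685 stems, the epidermal list 572 and the interstitial list 63, and all were tested. The gastrodermal list took 14.6%, 14.8% and 14.8% of counts in gESC_3d A, B and C and 14.4%, 14.5% and 12.6% in gESC_10d A, B and C. Its share of all counts was lower in every 10-day library, with means of 14.7% ± 0.0981 (SD, n = 3) and 13.8% ± 1.10 (n = 3). The gESC_10d C library set most of the difference. In gESC_10d C a single stem outside the list, c26324_g1, held 15.4% of counts, the most of any gESC library. It took 6.02%, 3.20% and 11.2% in gESC_3d A, B and C, and 9.36% and 4.84% in gESC_10d A and B. A large share of 1 stem lowers the shares of all others. The order of the libraries is therefore given for all counts only, and the list's share of the remaining counts was not tested. The exact permutation test over libraries gave p = 0.1 (two-sided), the smallest that 3 against 3 allows, and 0.3 after Benjamini-Hochberg adjustment over the 6 shares and counts tested this way. With all libraries, 2 stems of the list passed edgeR's test, both lower and both described above, and 0 were higher, out of 11 lower and 1 higher among all 18288 stems tested. Without gESC_3d C, 6 of the 685 were called lower and 1 higher, 0.876% and 0.146% of the list, against 3.95% and 1.26% of all stems tested in that fit. With all libraries the median log2 fold change was -0.03, against 0.04 over all tested stems, and 0.18 against 0.24 when scaled by library size alone.

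RNA of the epidermal list was rare in gESC. It took 0.111%, 0.111% and 0.126% of counts in gESC_3d A, B and C and 0.137%, 0.162% and 0.132% in gESC_10d A, B and C, against 11.7 to 15.9% in the epidermal libraries that defined it. The 3-day and 10-day shares did not overlap (exact permutation p = 0.1, adjusted 0.3). The list's median log2 fold change was 0.40 with all libraries, 0.50 without gESC_3d C and 0.49 without gESC_3d C and gESC_10d A. With all libraries 0 of its 572 stems passed the test, and without gESC_3d C 20 were called higher and 4 lower, 3.50% and 0.699% of the list against 1.26% and 3.95% of all stems tested. With all libraries 0.0656% of all stems were called, so 0 of 572 is near the background. At these levels 23 to 119 of the 572 stems had no count in a gESC library. Of the interstitial list, 0.0249% ± 0.00806 of counts at 3 days and 0.0238% ± 0.0101 at 10 days (n = 3 each) came from its 63 stems (exact permutation p = 0.9), none passed edgeR's test with all libraries, and 1 of 63 was called lower without gESC_3d C (1.59%, against 3.95% of all stems). The part of epidermal RNA in the stems called higher was not tested.

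The stem with the most counts in every gESC library, c26324_g1, took 6.02%, 3.20% and 11.2% of counts in gESC_3d A, B and C, and 9.36%, 4.84% and 15.4% in gESC_10d A, B and C. The groups overlapped (exact permutation p = 0.6). Drawn to an equal depth of 17159718 counts, the expected number of stems with a count was 24964, 24579 and 23725 at 3 days and 24635, 29982 and 29824 at 10 days. Only gESC_10d B and C were high, gESC_10d A lay within the 3-day range, and the groups gave exact permutation p = 0.2. The 95% Wilson intervals of shares of counts in the gESC libraries were at most 0.0316 points wide; they and the limits given for a count of 0 cover only the error of counting, as reads lacking molecular identifiers are not independent.

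Change with time without food was next compared between the gastrodermis and the epidermis with the interaction term of the same fit. It passed for 15 of 18288 stems (0.082%), 8 of which also passed without gESC_3d C. The count fell to 5 without gESC_10d A, gESC_10d B or eESC_3d A, to 6 without eESC_3d C, to 7 without gESC_3d A, gESC_3d B or gESC_10d C, to 8 without eESC_10d D and to 9 without gESC_3d C. All 15 were called in the epidermis and 0 passed edgeR's test in gESC, where their log2 fold changes ran from -0.52 to 0.76. Of all stems tested, 12.3% were called in the epidermis and 0.0656% in gESC, so 0 of 15 in gESC is near the background. The 15 were also chosen by the difference between the layers. In 12 of the 15 the epidermal level rose (log2 fold change 0.95 to 3.25), and in 3 it fell (-4.61 to -2.75). Depth class went fully with the days in eESC, while gESC_3d C was a deeper 3-day library. Days without food and depth class therefore cannot be told apart in the difference between layers. With every library thinned at random to 17159718 counts, 17 of 16569 stems passed the interaction test.

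The largest difference was in c25499_g1. In gESC it was at 34.79, 31.2 and 44.6 CPM at 3 days and 73.09, 47.4 and 34.97 CPM at 10 days, with the groups overlapping (log2 fold change 0.49; adjusted p = 0.546). In the epidermis it was at 997.6, 769.5 and 1029 CPM in eESC_3d A, B and C and at 33.79, 25.77, 61.71 and 31.57 CPM in eESC_10d A, B, C and D. After 10 days both layers were therefore at a like level, 51.8 ± 19.4 CPM in gESC (n = 3) and 38.2 ± 16.0 CPM in eESC (n = 4). The change in gESC minus that in eESC was 5.10 on the log2 scale (SE 0.464; adjusted p = 2.9e-05).

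The other stem of that direction named by the rule was c19475_g1. It stayed between 1.088 and 2.491 CPM in all 6 gESC libraries and was at 75.2 ± 22.0 CPM in eESC_3d (n = 3) and 11.2 ± 2.13 CPM in eESC_10d (n = 4), a difference between layers of 3.07 (SE 0.416; adjusted p = 0.00302).

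In the opposite direction, c23830_g1 was at 19.17, 21.63 and 19.06 CPM in gESC_3d A, B and C and 18.48, 19.65 and 15.58 CPM in gESC_10d A, B and C. Its gESC libraries overlapped between the times, and gESC_3d C lay close to gESC_3d A. In the epidermis it was 2.09 ± 0.304 CPM at 3 days (n = 3) and 6.30 ± 0.455 CPM at 10 days (n = 4), so the difference between layers was -1.74 (SE 0.233; adjusted p = 0.00302).

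The stem c19446_g1 was at 171.4, 191.6 and 178.8 CPM in gESC_3d A, B and C and at 124.5, 129.3 and 124.8 CPM in gESC_10d A, B and C, groups that did not overlap and did not pass the test (log2 fold change -0.52; adjusted p = 0.171). In the epidermis it was at 10.3 ± 0.392 CPM at 3 days (n = 3) and 19.9 ± 5.15 CPM at 10 days (n = 4), and the difference between layers was -1.47 (SE 0.236; adjusted p = 0.0160). The highest epidermal value, 27.25 CPM, was in eESC_10d C, where the gastrodermal list took 1.66% of counts against 0.236 to 0.262% in the other eESC_10d libraries. This difference lost its call in 10 of 23 alternatives. Without eESC_10d C it kept its call at -1.28 (edgeR adjusted p = 0.00426), and the layers differed in 27 stems in place of 15.

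**Figure D4:**
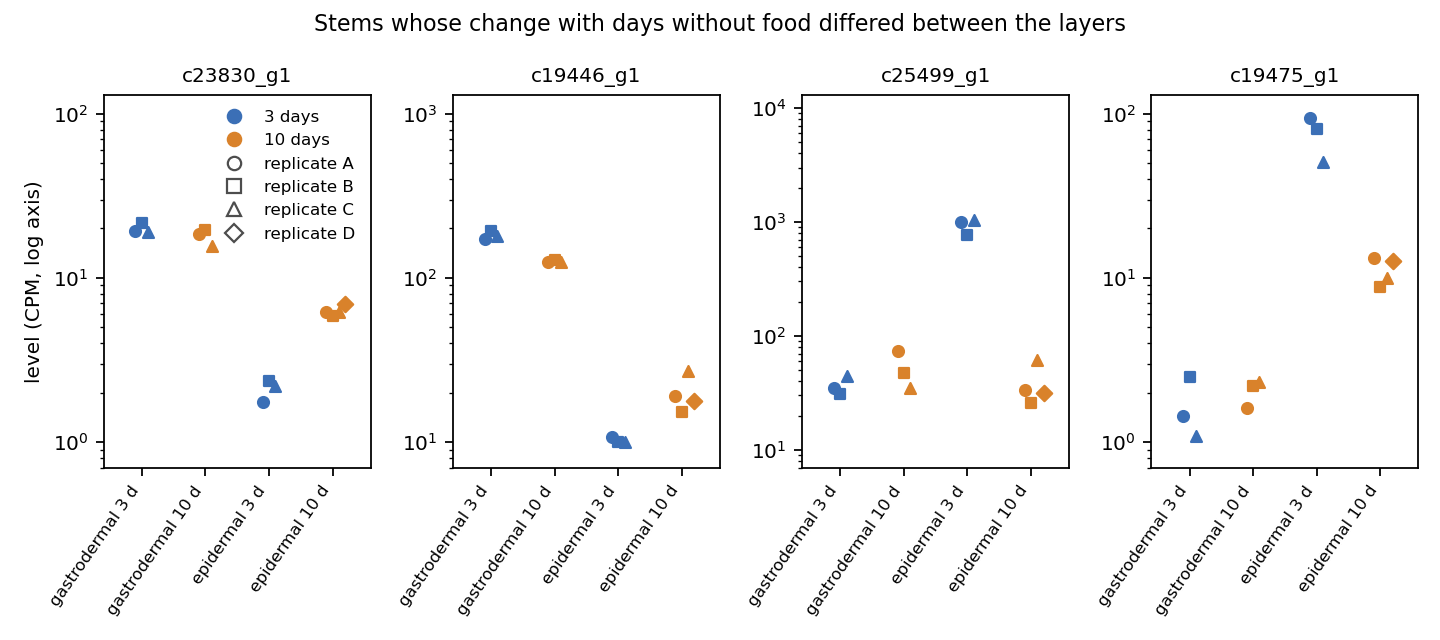
Level in CPM, on a log axis, of the 4 stems named for a difference between the layers, with 1 point per library. The gESC levels move little, while the epidermal levels of c25499_g1 and c19475_g1 fall and those of c23830_g1 and c19446_g1 rise between 3 and 10 days.

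Single contigs were tested as deposited, and 4 of 28522 passed (0.014%), 2 higher and 2 lower. Without gESC_3d C, 961 passed. How a stem's counts are split among its contigs was described next, since this does not depend on library scaling. Of the 2281 stems with at least 2 contigs and 10 CPM in each gESC library, and with the same leading contig in all libraries of a group, 19 had a different leading contig after 10 days (0.833%), with a margin of at least 10 percentage points. Without gESC_3d C there were 130 of 2451 (5.30%), and 18 of the 19 were among them. On their summed level, 0 of the 19 stems passed edgeR's test with all libraries, where 0.0656% of all stems did, and 3 were called lower and 0 higher without gESC_3d C, where 3.95% and 1.26% did. No test was run on the shares.

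The largest change was in c19654_g1. The contig ending in i02 held 99.8%, 99.9% and 99.8% of its counts in gESC_3d A, B and C, and 9.97%, 13.6% and 6.77% in gESC_10d A, B and C. The contig ending in i03 had 0 counts in the 3-day libraries, which held 1662, 1676 and 1994 counts of the stem and so allow a share of at most 0.181% (3 counts), and took 89.6%, 86.2% and 92.9% after 10 days. Here gESC_3d C matched the other 3-day libraries. The stem as a whole was at 96.7 ± 15.0 CPM at 3 days (n = 3) and 73.7 ± 3.30 CPM at 10 days (n = 3; log2 fold change -0.39; adjusted p = 0.353). The epidermis showed the same exchange, with i02 at 91.9 to 94.8% in eESC_3d and 5.23 to 17.9% in eESC_10d. The interstitial libraries, after 2 to 5 days without food, held 2.80 to 11.9% of i02 with the exception of ISC_medium A, at 59.9%. In this the interstitial libraries other than ISC_medium A were like the 10-day and unlike the 3-day epithelial libraries.

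The next largest change was in c21479_g1, in which the contig ending in i03 held 60.0%, 64.8% and 50.8% in gESC_3d A, B and C and 0%, 0% and 5.50% in gESC_10d A, B and C. The contig ending in i01 held 29.7%, 27.3% and 38.5% at 3 days and 83.0%, 81.7% and 72.0% at 10 days. With 970 and 820 counts of the stem, the 0 in gESC_10d A and B allowed a share of up to 0.309% and 0.366% (3 counts). In the epidermis i03 held 29.9 to 34.3% at 3 days and 20.5 to 23.9% in eESC_10d A to C, with 0.0963% in eESC_10d D. The contig ending in i01 already led in every eESC_3d library, at 38.3 to 54.8%, so the leading contig did not differ between the times in the epidermis. In the interstitial libraries, after 2 to 5 days without food, i03 held 0% in 6 of 7, where 3 counts would be 0.374 to 3.37% of the stem, and 2.28% in ISC_medium A. Estimated counts divide reads between near-identical contigs, and the part of that division in these shares was not tested.

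**Figure D5:**
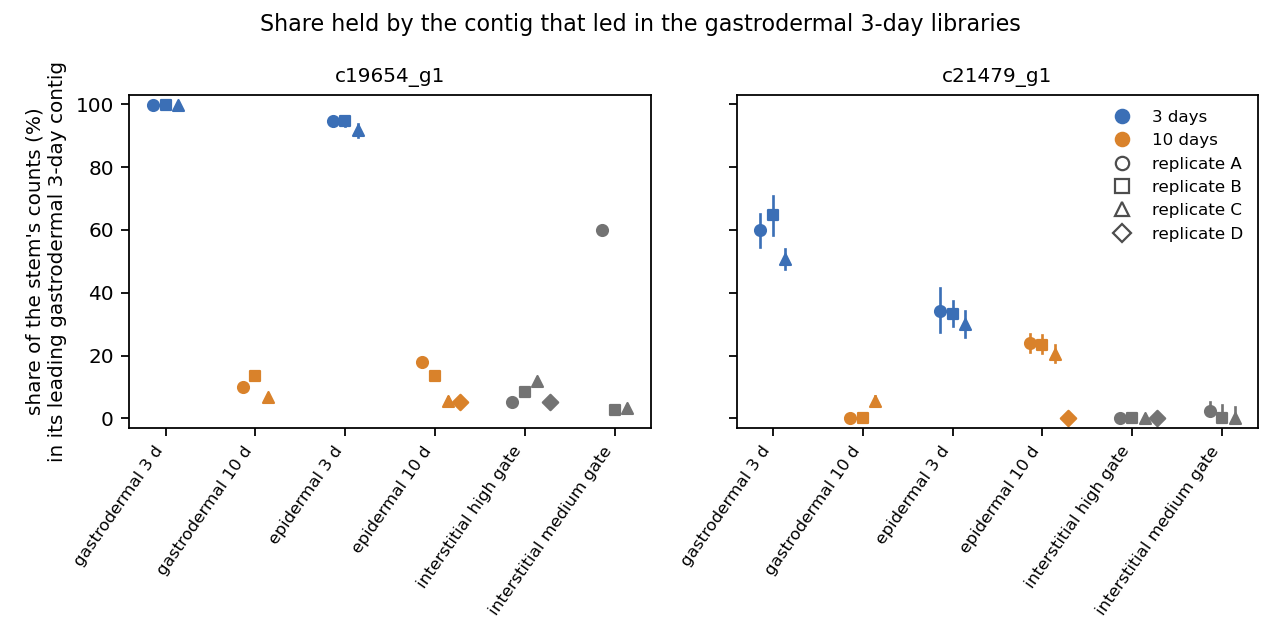
Share of a stem's counts in the contig that led in the gESC_3d libraries, with 1 point per library and its 95% Wilson interval. In c19654_g1 the share is at least 91.9% in every 3-day epithelial library and at most 17.9% in every 10-day one, and in c21479_g1 it is 50.8 to 64.8% in gESC_3d and at most 5.50% in gESC_10d.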

How the data were processed

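The authors deposited a table of whole numbers for 61501 contigs in 22 libraries. The submitters' processing notes name cutadapt 1.11, Salmon 0.7.2 and DESeq2, so the deposited values are taken as estimated counts rounded to whole numbers; the transcriptome is not given in the sources used here. They were summed by stem with no further rounding. Members and lists were chosen with earlier results of these data known.

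The 20 sorted libraries were fitted with edgeR 4.0.16 (quasi-likelihood F test, TMM factors, one mean per group; R 4.3.3) after filtering with filterByExpr (min.count 10, min.total.count 15), which kept 99.7 to 99.9% of counts. Calls needed a Benjamini-Hochberg adjusted p-value under 0.05 over all stems tested. Levels are CPM on TMM-scaled library sizes, and descriptive differences used log2(CPM + 0.25). The code was tested on simulated counts. Stems named were those called with and without gESC_3d C, at 10 CPM or more and without overlap between groups, up to 2 in each direction; for the layers, those called in the interaction with and without gESC_3d C at 10 CPM or more. Single shares were compared with exact permutation tests (SciPy 1.17.1). Alternatives were other filters and scalings, DESeq2 1.42.0, thinned libraries, a fit of only the groups compared, depth class or replicate letter as a term, and leaving out libraries. The 2 unsorted libraries and a second deposited table of normalized values were not used.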

Additional observations from a re-analysis of the deposited data

Results flagged for a closer look

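The change between 3 and 10 days differed between the gastrodermis and the epidermis, by the interaction test, in 15 stems, 8 of which also passed without gESC_3d C. The named ones had differences, gESC minus eESC on the log2 scale, of 5.10 (c25499_g1), 3.07 (c19475_g1), -1.74 (c23830_g1) and -1.47 (c19446_g1). Depth class went fully with the days in eESC and not in gESC, so days without food and depth class cannot be told apart here.

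In eESC_10d C, 1.66% of counts came from the gastrodermal list, and in the other 3 libraries of that group 0.236 to 0.262%; its distance from them exceeded the critical value of Dixon's test for 4 samples. The test was applied to 7 groups of 4 values, and chance alone marks about 1 group in 20.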

How the results depend on the processing

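With all libraries the 12 calls became 236 with a mean of at least 5 CPM, 4 with library size alone and 542 with DESeq2. They became 4 with only the groups compared and 1 with a depth class term. Leaving out 1 library gave 0 to 1013 calls, and leaving out gESC_3d C and gESC_10d A, chosen after seeing the data, 693. Without gESC_3d C the 1013 calls became 331 with no filter, 1673 with a mean of at least 5 CPM, 1574 with DESeq2 and 2442 with only the groups compared; leaving out 1 more library gave 76 to 693, and a depth class term could not be fitted there. The 15 stems that differed between layers became 9 with no filter, 6 with library size alone, 94 with DESeq2, 7 with only the groups compared, 9 with a depth class term, 5 to 27 without 1 library and 5 without gESC_3d C and gESC_10d A. The 4 contigs became 11 with no filter, 138 with a mean of at least 5 CPM, 11 with library size alone, 967 with DESeq2, 2 with only the groups compared, 28 with a depth class term, 5 to 961 without 1 library and 687 without gESC_3d C and gESC_10d A. With every library thinned at random to 17159718 counts, the calls were 12 with all libraries and 1190 without gESC_3d C. Between layers they were 17, and 3 contigs were called. The cause of the shifts in these counts was not tested. Depth class varied within gESC_3d alone, so a depth class term rested on gESC_3d C against gESC_3d A and B. For the gESC comparison it is therefore not separate from the fit without gESC_3d A and B, where all gESC libraries were of the deeper class. Lower-class libraries of other cells stayed in that fit. No named stem changed direction under any alternative run.

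Replicate letters did not pair the gESC libraries: deviations from the group means correlated at -0.40, 0.31 and -0.40 for letters A, B and C. With the letter as a replicate block, edgeR called 0 stems with all libraries (1326 at an unadjusted p under 0.05; DESeq2 without the block, 542), 524 without gESC_3d C, 0 between layers (1147 unadjusted) and 0 contigs (1470 unadjusted).

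Depth limits stems near the floor of 3 counts, which is 0.0946 to 0.155 CPM in the gESC libraries.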

Other observations

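Among the gESC libraries, 1943 stems had counts only in gESC_10d B and C and in none of the other 4. The median was 1 count per stem in each, with at most 15 and 14 counts. A count was also present for 75.8% of them in ISC_high B, 40.4 to 56.8% in ISC_high A, C and D, 29.3 to 44.3% in ISC_medium, 39.8% in eESC_10d A, 59.9 to 62.2% in eESC_10d B, C and D, and 23.6 to 29.2% in eESC_3d. Of all 44306 stems, 75.6% had a count in ISC_high B, 60.6 to 66.6% in ISC_high A, C and D, 54.9 to 61.3% in ISC_medium, 66.7% in eESC_10d A, 76.7 to 78.4% in eESC_10d B, C and D, and 56.6 to 61.5% in eESC_3d. Apart from ISC_high B, where the shares were about equal, each library held a smaller share of these stems than of all stems. These stems were chosen for having no counts in 4 gESC libraries and hold few counts, which by itself can lower their shares. Stems of like level were not compared, so no conclusion is drawn from these shares.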
